A study of Mus musculus with 51 samples.

Results

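The mouse stromal line OP9, which supports hematopoietic stem and progenitor cells in culture, was compared with the stromal line BFC, which does not, per the labels. The members were the 3 arrays titled as OP9 replicates and the 3 titled as BFC replicates, 6 of the 51 arrays of the series. RNA had been taken from confluent cultures on 0.1% gelatin and 100 ng of total RNA was hybridised to mouse gene 1.0 ST arrays, which measure expression with several probes along each transcript. The series held 17 groups, of which 13 were confluent stromal lines from embryonic and adult blood-forming tissues. OP9 came from fetal calvaria (the skull vault) of (C57BL/6xC3H)F2-op/op mice, with replicates 1 and 2 grown at 37 °C and replicate 3 at 33 °C. BFC came from C57BL/6 fetal liver of embryonic day 14.5, with all replicates at 33 °C, and its label gives no clone number. Each side of the comparison was therefore a single line. Tissue, strain, the op/op genotype and, for 2 arrays, the temperature went with the line and cannot be told apart from support. Whether the replicates of a line came from separate cultures is not stated, and the p-values therefore cover the spread among these arrays alone, which may be technical.

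Stromal cells build the niche in which blood-forming cells live: they secrete cytokines and growth factors such as stem cell factor and CXCL12, present adhesion proteins, and lay down the extracellular matrix. OP9 cells are widely used as feeder layers for hematopoietic differentiation, and they can turn into adipocytes. Mice homozygous for op carry a mutation in the coding sequence of Csf1, the gene of macrophage colony-stimulating factor, and make no functional protein from it.

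Signals were log2 values per probe set, and a difference is the OP9 mean minus the BFC mean on that scale, so that 1 stands for a 2-fold and 2 for a 4-fold change. The 6 arrays had been normalized as a set of their own, with array medians between 5.04 and 5.09. Over the 19938 genes tested, the mean signal of both lines had a first quartile of 4.095 and a median of 5.27. Signals under that first quartile are called dim here, since the array may not register the transcript at that level. Across genes, arrays correlated at 0.994 to 0.995 within OP9, at 0.996 within BFC and at 0.948 to 0.950 between the lines. Of 10 stromal marker genes, 9 were above the median in each line. That level was not limited to stroma. It was reached by 3 of 4 skeletal muscle markers in each line, and by 4 of 5 smooth muscle markers in OP9 and 2 in BFC. Of 10 hematopoietic markers, 7 were dim and 1 was above the median in each line. Of 7 hepatocyte markers, 5 were dim in each line and 1 was above the median in OP9. Of 8 endothelial markers, 4 were dim in each line and 1 was above the median in BFC. Of the 4 osteoblast markers measured, only Alpl was above the median in OP9, and Ibsp and Dmp1 were dim there.

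Between OP9 and BFC, 6744 genes passed the threshold of an adjusted p of 0.05 in limma's moderated test, which is 33.8% of all genes tested. Of these, 3414 were higher in OP9 (17.1%) and 3330 were lower (16.7%). The median difference over all genes was 0.01. A difference of at least 2-fold was reached by 1232 of these genes (6.18%), 755 higher and 477 lower. At 4-fold or more the balance moved further to the OP9 side, with 218 higher and 85 lower. Without any test, all OP9 arrays lay on one side of all BFC arrays for 8857 genes (44.4%).

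**Figure D1:**
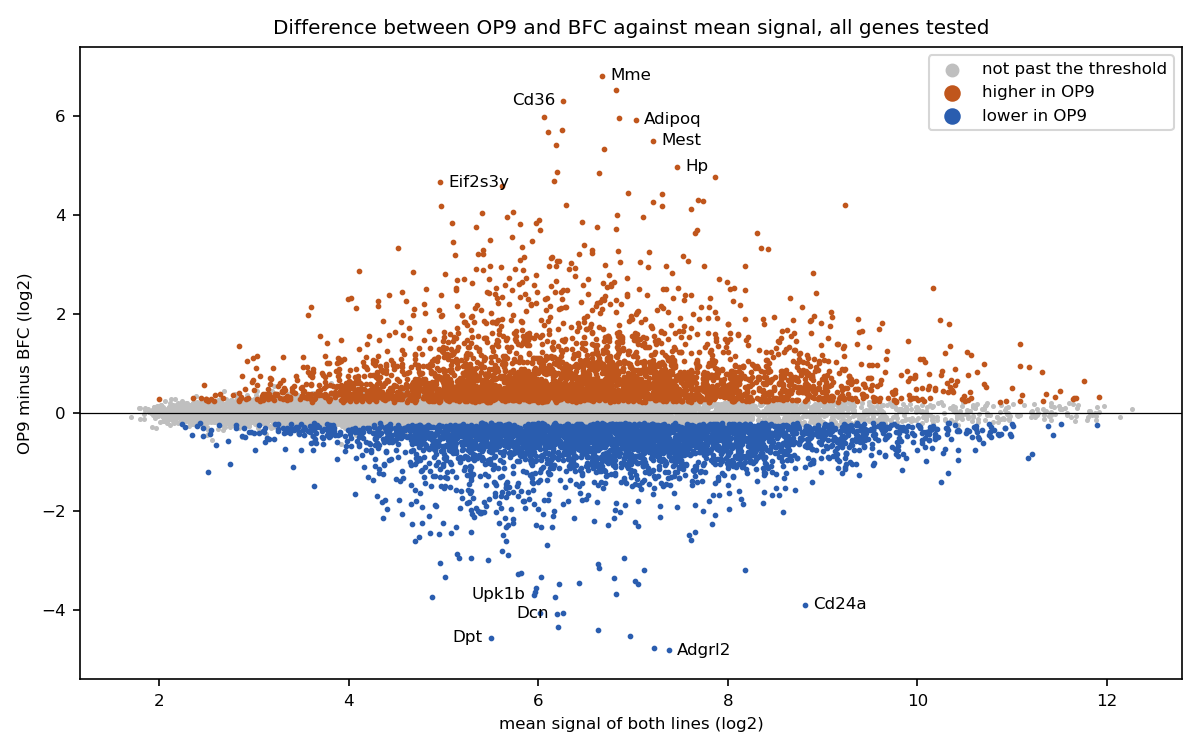
Difference between the lines (OP9 minus BFC, log2, y axis) against the mean signal of both lines (log2, x axis) for the 19938 genes tested; orange and blue points passed the threshold, higher or lower in OP9, and grey points did not. The points furthest from 0 lie above it, up to Mme, and the lowest, Adgrl2 and Atp1b1, lie less far below it.

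The macrophage factor Csf1 was read first, as the gene behind the op/op label. It gave 8.17, 8.48 and 8.50 in OP9 and 7.32, 7.44 and 7.26 in BFC. All OP9 arrays were above all BFC arrays, and the difference was 1.04 ± 0.10 (SE, adjusted p = 2.53e-05). The probe set reads transcript amount and not the op mutation, so this value does not check the genotype.

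The gene that differed most was Mme, which encodes the membrane peptidase neprilysin (CD10), a surface marker of lymphoid progenitors and some stromal cells. Its signal was 10.03, 10.06 and 10.15 in OP9 and 3.29, 3.31 and 3.18 in BFC. The BFC arrays were all dim, and the difference was 6.82 ± 0.08 (SE, adjusted p = 4.09e-11). The AMPA-type glutamate receptor subunit Gria3 differed by 5.42, the disintegrin-domain protein Adam23 by 5.34, the hemoglobin-binding plasma protein haptoglobin (Hp) by 4.97, carbonic anhydrase 3 (Car3) by 4.87, and the lipid phosphatase Plpp3 by 4.84. In the 14 named genes higher in OP9 the difference corresponded to 28.7-fold to 112.8-fold, and 11 of the 14 were dim in BFC.

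On the BFC side the largest difference was in Adgrl2, an adhesion G protein-coupled receptor of the latrophilin family. It had 8 probe sets, and the 1 with the highest mean stood for the gene. The others are not given here. The chosen probe set gave 9.76, 9.75 and 9.83 in BFC and 4.99, 4.52 and 5.39 in OP9. No array overlapped, although OP9 itself spread over almost 1 log2 unit, and the difference was -4.81 ± 0.18 (SE, adjusted p = 2.87e-08). The sodium pump subunit Atp1b1 was at 9.64, 9.56 and 9.59 in BFC against 4.71, 4.92 and 4.90 in OP9, a difference of -4.76. Matrix genes followed, with dermatopontin (Dpt) at -4.57, decorin (Dcn) at -4.08 and the procollagen processing enhancer Pcolce2 at -4.06. Among surface proteins the teneurin Tenm3 (-4.40), the tetraspanin Tspan8 (-4.05), Cd24a (-3.90), Gpm6a (-3.74), the uroplakin Upk1b (-3.70) and the adhesion molecule Cadm1 (-3.68) were lower in OP9, as were the ubiquitin ligase Rnf130 (-4.34) and Fndc3c1 (-3.73). The 14 named genes lower in OP9 differed by 12.8-fold to 28.1-fold. Standard errors of the 28 differences lay between 0.076 and 0.176.

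**Figure D2:**
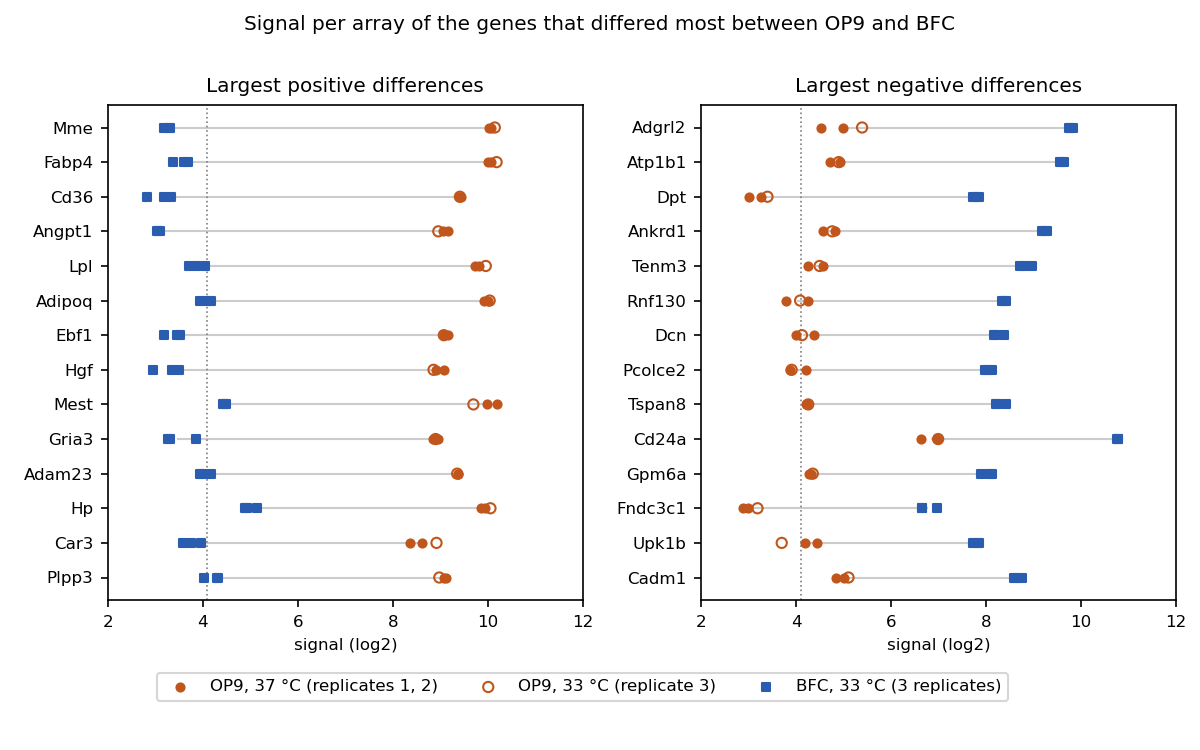
Signal per array (log2, x axis) of the 14 genes with the largest positive (left) and the 14 with the largest negative (right) difference; filled orange circles are OP9 at 37 °C, open orange circles OP9 at 33 °C, blue squares BFC, grey lines join the means, and the dotted line is the first quartile of all genes' signals. The genes were chosen among those whose arrays did not overlap between the lines, so the separation in each row follows from that choice. Spread within a line varied, with Adgrl2 in OP9 from 4.52 to 5.39.

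Secreted niche factors went both ways. Of 41 measured hematopoietic niche cytokines and growth factors 15 were higher in OP9, 9 were lower and 17 did not pass. The median difference was 0.08, and 58.5% were called, against 33.8% of all genes. Angiopoietin 1 (Angpt1), the ligand of the receptor Tie2 on stem and endothelial cells, was 9.15, 9.05 and 8.96 in OP9 and 3.04, 3.10 and 3.05 in BFC. BFC was dim on all arrays, and the difference was 5.99 ± 0.08 (SE, adjusted p = 9.18e-11). Hepatocyte growth factor (Hgf), a ligand of the receptor Met, stood at 9.07, 8.91 and 8.86 in OP9 and at 2.95, 3.49 and 3.35 in BFC. Its difference was 5.69 ± 0.13 (SE, adjusted p = 1.35e-09), while its receptor Met, chosen after its values were seen, was lower in OP9 (-1.05). Stem cell factor (Kitl), the ligand of Kit, was 8.29, 8.30 and 8.30 in OP9 and 5.48, 5.79 and 5.43 in BFC, a difference of 2.73 ± 0.10 (SE, adjusted p = 2.64e-08).

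Other niche factors, chosen here after their values were seen, differed less. The chemokine Cxcl12, which retains stem cells in the marrow, was bright in both lines, with 10.59, 10.58 and 10.65 in OP9 and 9.51, 9.57 and 9.49 in BFC. The lines did not overlap, and the difference was 1.08 ± 0.07 (SE, adjusted p = 1.68e-06). The lymphoid cytokine Il7 differed by 1.94, Igf1 by 1.40 and the keratinocyte growth factor Fgf7 by 0.93. Flt3l, the ligand of the receptor Flt3, gave 5.23, 4.86 and 4.96 against 4.81, 4.80 and 4.82, and did not pass (adjusted p = 0.143). Dlk1, a transmembrane protein of the Notch ligand family, did not pass either, at 6.05, 5.57 and 5.95 against 5.70, 5.67 and 5.62 (difference 0.20 ± 0.12, SE, adjusted p = 0.252).

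Niche factors on the BFC side were led by the Wnt modulator Sfrp2, at 8.02, 7.80 and 8.02 in BFC and 4.09, 4.60 and 4.77 in OP9 (difference -3.46 ± 0.16, SE, adjusted p = 1.06e-07). Pleiotrophin (Ptn), a growth factor made by hematopoietic niche cells, was 8.35, 8.25 and 8.43 in BFC against 6.24, 6.30 and 6.14 in OP9 (-2.12). The monocyte chemokine Ccl2 was 8.92, 9.10 and 8.97 in BFC and no higher than 7.07 on any OP9 array (-1.95). In all 3 genes the lines were clear of each other. Among 25 adhesion and surface proteins of the niche, 11 were higher in OP9 and 6 were lower, with a median difference of 0.20. Periostin (Postn, 2.91), fibronectin (Fn1, 1.38) and the receptors Pdgfra (2.50) and Pdgfrb (2.19) were higher, and N-cadherin (Cdh2, -2.22) was lower.

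Markers of CXCL12-abundant reticular cells, the perivascular marrow stroma that also primes adipocyte genes, were mostly higher in OP9. Among 18 measured there were 14 higher, 2 lower and 2 that did not pass (median difference 2.04). Several of them are also on the niche or adipocyte list. The transcription factor Ebf1, which maintains these cells and is needed for B lymphocytes, stood at 9.07, 9.17 and 9.08 in OP9 and was dim on all BFC arrays at 3.52, 3.19 and 3.46. The difference was 5.72 ± 0.10 (SE, adjusted p = 3.35e-10). Its relative Ebf3 differed by 1.88, and Foxc1, a further regulator of this cell type, was at 7.35, 7.55 and 7.20 against 5.66, 4.86 and 5.15 (2.14); both were chosen after their values were seen. Against the direction of the list, the BMP antagonist Grem1 was 5.08, 4.85 and 5.29 in OP9 and 8.32, 7.94 and 8.37 in BFC (-3.14), and the adhesion molecule Vcam1, chosen likewise, was lower in OP9 as well (-0.74).

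**Figure D3:**
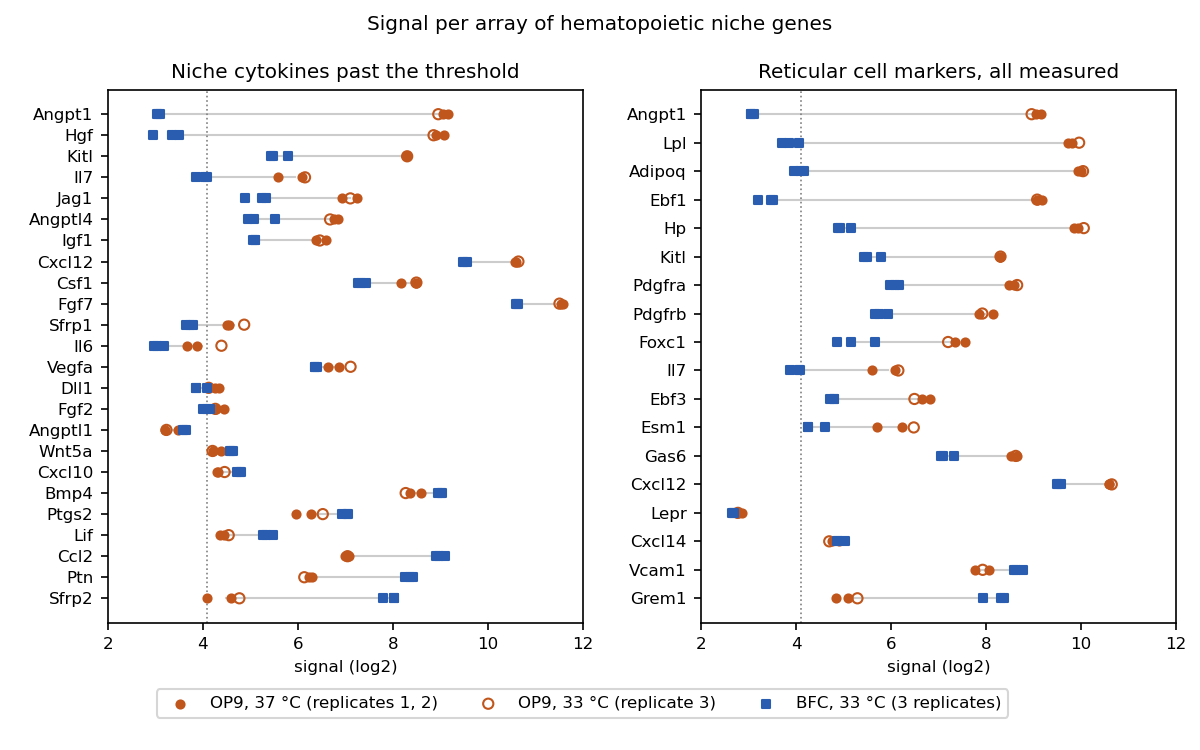
Signal per array (log2, x axis) of the niche cytokines that passed the threshold (left) and of all 18 measured reticular cell markers (right), ordered by their difference; filled orange circles are OP9 at 37 °C, open ones OP9 at 33 °C, blue squares BFC, and the dotted line is the first quartile of all genes' signals. Angpt1 and Hgf head the left panel with BFC left of the dotted line, and Sfrp2 and Ptn end it with the order of the lines turned.

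Adipocyte genes were mostly higher in OP9. Among 36 measured adipocyte genes there were 24 higher in OP9, 5 lower and 7 that did not pass (median difference 0.79). The fatty acid binding protein Fabp4 was 10.01, 10.06 and 10.19 in OP9 and 3.69, 3.36 and 3.60 in BFC (6.54 ± 0.10, SE, adjusted p = 1.81e-10). The fatty acid transporter Cd36 was 9.40, 9.44 and 9.41 against 3.32, 3.18 and 2.83 (6.31), and the hormone adiponectin (Adipoq) was 9.93, 10.00 and 10.04 against 4.16, 4.08 and 3.95 (5.93). Lipoprotein lipase (Lpl), which releases fatty acids from lipoproteins, differed by 5.96, and the microsomal enzyme Mgst1 by 4.28. In these genes the arrays of a line lay close together, and BFC was dim or nearly so except for Mgst1.

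The master regulator of adipocyte differentiation Pparg, chosen after its values were seen, was measurable in both lines, at 10.07, 10.10 and 10.09 in OP9 and 6.69, 6.78 and 6.85 in BFC (3.31 ± 0.08, SE, adjusted p = 1.25e-09). Its partner Cebpa, chosen likewise, stood at 7.72, 7.73 and 7.73 against 5.70, 5.39 and 4.90 (2.40). All 5 members lower in OP9 are given here, chosen for that direction: the desaturases Scd2 (-1.80) and Scd1 (-0.83), the carboxylase Acaca (-1.06) and the fatty acid synthase Fasn (-0.73), which are enzymes of fatty acid synthesis, and the transcription factor Ebf2 (-0.57). Over the 6 defining adipocyte markers measured, the mean signal was between 8.88 and 8.99 on the OP9 arrays and between 4.84 and 4.90 on the BFC arrays. In bulk RNA, fewer cells of a type and less RNA per cell cannot be told apart, so the share of OP9 cells that had become adipocytes was not measured.

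Skeletal lineage genes were higher in OP9 in part. Of 22 osteoblast genes measured, 8 were higher and 1 was lower (40.9% called), and of 19 chondrocyte genes 7 were higher and none was lower (36.8%), where 33.8% of all genes were called. Osteoprotegerin (Tnfrsf11b), the decoy receptor that limits osteoclasts, was 7.69, 8.10 and 8.30 in OP9 and 4.97, 4.65 and 4.83 in BFC (3.21). The transcription factor Dlx5, which acts in skull and bone formation, was 7.91, 7.44 and 7.83 against 4.40, 4.90 and 4.68 (3.07). Alkaline phosphatase (Alpl) differed by 1.10 and the secretory kinase Fam20c by 1.46. Among cartilage genes, Matn2 (1.89), Sox5 (1.75) and Sox9 (1.49) led. The late osteoblast markers Ibsp and Dmp1, both among the defining markers, were dim in both lines and did not pass (adjusted p = 0.309 and 0.228), nor did the osteoblast factor Sp7 (difference -0.01, adjusted p = 0.958). Osteomodulin (Omd) passed with 0.57, but its difference was 0.19 with the 33 °C array of OP9 alone (adjusted p = 0.437), and it also missed the threshold in the fit of all 39 confluent arrays (0.57, adjusted p = 0.0813) and without OP9 replicate 1 (0.52), OP9 replicate 2 (0.43) or BFC replicate 1 (0.50).

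Matrix genes were more often higher than lower in OP9. Of 19 interstitial collagens 11 were higher in OP9 and none was lower, with a median difference of 0.48. The collagen VI chain Col6a3 was 9.50, 9.55 and 9.48 in OP9 and 5.24, 4.99 and 5.04 in BFC (4.42 ± 0.08, SE, adjusted p = 5.75e-10). The collagen I chain Col1a2 differed by 3.26, Col12a1 by 2.64 and Col8a1 by 1.74. Of 27 small leucine-rich proteoglycans and elastic fibre genes, 15 were higher in OP9 and 2 were lower (median 0.47). The proteoglycan Prelp was 10.28, 10.31 and 10.16 in OP9 and 5.25, 5.51 and 5.67 in BFC (4.77), whereas its relative decorin was on the BFC side, as given above. The fibulin-like Efemp1 (3.32), the lysyl oxidase Loxl3 (2.96) and the microfibril proteins Mfap5 (2.71) and Ltbp2 (2.13) were higher too. The other gene lower in OP9, chosen after its values were seen, was the microfibril protein Mfap2 (-0.62).

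Among 26 basement membrane genes 10 were higher in OP9 and 3 were lower (median 0.06, 50% called). The laminin chain Lama4 (2.62) and nidogen 1 (Nid1, 1.72) led. Of 27 matrix proteases and inhibitors 14 were higher and 5 lower. The gelatinase Mmp2 was 9.10, 9.16 and 9.25 in OP9 and 4.87, 4.64 and 4.67 in BFC (4.44 ± 0.09, SE, adjusted p = 5.75e-10), and the stromelysin Mmp3 went the other way (-2.24). The inhibitors Serpinf1 (4.30) and Timp1 (2.51) were higher in OP9. Of 19 integrins 7 were higher and 2 lower (47.4% called, against 33.8% of all genes). The collagen-binding chains Itga1 (3.50) and Itga11 (2.45) were higher in OP9, and Itgb8 (-2.61) and the laminin-binding chain Itga3 (-1.84) were lower.

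Contractile genes were higher in OP9 or did not pass. Of 24 smooth muscle and pericyte markers 14 were higher, none was lower and 10 did not pass, with a median difference of 0.47. Smooth muscle actin (Acta2) was 11.44, 11.37 and 11.50 in OP9 and 8.84, 8.99 and 8.89 in BFC (2.53 ± 0.08, SE, adjusted p = 8.82e-09). Enteric smooth muscle actin (Actg2) was 8.17, 8.18 and 8.26 against 4.82, 4.93 and 5.01 (3.28), and transgelin (Tagln) was 8.92, 9.11 and 9.29 against 5.95, 6.04 and 5.84 (3.16). The regulators of G protein signalling Rgs4 (2.71) and Rgs5 (1.47) and the myosin light chain Myl9 (2.42) were higher as well. The smooth muscle myosin Myh11, a defining marker, differed by 0.14 and did not pass (adjusted p = 0.202).

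Targets of the mechanically regulated YAP and SRF factors were more often higher than lower in OP9, with 14 of 28 higher and 5 lower. Of all genes 17.1% were higher and 16.7% lower, so the lower count was near its share. Connective tissue growth factor (Ccn2) was 8.87, 8.80 and 9.03 in OP9 and 7.25, 7.06 and 7.02 in BFC (1.79). The actin-binding Flna (1.43) and thrombospondin 1 (Thbs1, 1.22) were higher too. Ankrd1, a commonly used YAP reporter gene, went the opposite way and was among the genes that differed most: 4.56, 4.81 and 4.76 in OP9 against 9.28, 9.18 and 9.24 in BFC (-4.52 ± 0.09, SE, adjusted p = 5.75e-10).

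Genes of mesothelium, the epithelial covering of internal organs including the liver, were more often lower than higher in OP9. Of 29 mesothelial markers 14 were lower in OP9, 3 were higher and 12 did not pass, with a median difference of -0.25. The membrane glycoprotein Gpm6a was 8.13, 8.09 and 7.90 in BFC and 4.30, 4.26 and 4.35 in OP9 (-3.74 ± 0.08, SE, adjusted p = 1.25e-09). Uroplakin Upk1b was 7.85, 7.84 and 7.72 against 4.44, 4.17 and 3.69 (-3.70), and the retinal dehydrogenase Aldh1a1 was 8.12, 8.12 and 8.27 against 5.01, 5.20 and 5.07 (-3.07). P-cadherin (Cdh3, -2.68), the T-box factor Tbx20 (-2.47) and Upk3b (-2.14) followed. The mesothelial regulator Wt1, a defining marker, was 6.33, 6.25 and 6.21 in BFC and 5.52, 5.23 and 5.40 in OP9 (-0.88). Over the 6 defining mesothelial markers the mean signal was 5.90 to 6.00 on the BFC arrays and 4.60 to 4.73 on the OP9 arrays, and 5 of the 6 were lower in OP9.

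Transcription factors that pattern the viscera or the skull differed in both directions. Of 28 visceral mesoderm factors 9 were lower in OP9 and 2 were higher (39.3% called, near the 33.8% of all genes). Gata6, a regulator of visceral mesoderm and endoderm, was 7.89, 7.87 and 7.85 in BFC and 5.75, 6.08 and 5.73 in OP9 (-2.02), and Foxf1, a target of hedgehog signals in gut and liver mesenchyme, was lower by a similar amount (-1.53). Of 39 cranial and skeletal patterning factors 12 were higher in OP9 and 6 were lower (46.15% called). The forkhead factor Foxc2 was 7.65, 7.77 and 8.17 in OP9 and 4.16, 4.51 and 3.86 in BFC (3.69 ± 0.17, SE, adjusted p = 1.38e-07), and the limb and skull factor Prrx1 differed by 1.45. Not all of them were on the OP9 side: Eya1 (-2.88) and Twist2 (-1.66) were lower there, and of the visceral list Mab21l2 (2.51) and Nr2f1 (1.97) were higher.

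Hox genes, which mark position along the trunk and are silent in the mesenchyme of the front of the head, were more often lower than higher in OP9. Of 37 measured, 16 were lower, 1 was higher and 20 did not pass, with a median difference of -0.22. The share called was 45.95%, against 33.8% of all genes. Hoxb5 was 6.12, 6.23 and 6.79 in BFC and 4.14, 4.41 and 4.25 in OP9 (-2.11), and Hoxb6 was 6.30, 6.20 and 6.48 against 4.38, 4.12 and 4.33 (-2.05). Hoxa11 (-1.69), Hoxb9 (-1.53), Hoxa10 (-1.41) and Hoxa9 (-1.21) were lower too. In each of Hoxb5 and Hoxb6 the lines were well apart, and no OP9 array was above 4.41.

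Signalling genes of several pathways differed in both directions. The shares called were 35.3% of the Wnt and 40% of the Notch genes, near the 33.8% of all genes. Of 51 Wnt pathway genes 13 were higher in OP9 and 5 lower. The R-spondins, which amplify Wnt signals, were among the higher ones, with Rspo2 at 7.28, 7.73 and 7.49 in OP9 and 4.17, 3.81 and 3.83 in BFC (3.56) and Rspo3 at 1.86. The receptor Fzd6 was 8.12, 8.01 and 8.34 in BFC against 4.58, 4.58 and 4.93 in OP9 (-3.46). Of 25 Notch pathway genes 6 were higher and 4 lower. The Notch ligand Jag1 was 6.94, 7.24 and 7.11 in OP9 and 4.89, 5.32 and 5.25 in BFC (1.94), the DNA-binding partner Rbpj differed by 1.23, and the target genes Hey1 (0.73) and Hes1 (0.52) were higher, while the receptor Notch2 was lower (-0.49). With the 33 °C array of OP9 alone, Hes1 (0.52, adjusted p = 0.0795) and Notch2 (-0.41, adjusted p = 0.0666) no longer passed.

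In the TGF-beta and BMP pathway 15 of 42 genes were higher in OP9 and 6 were lower (50% called). Its secreted antagonists were split, with follistatin (Fst, 2.37), Fstl1 (1.89) and the BMP antagonist Chrdl1 (1.54) higher and Grem1 lower, as given above. Of 48 axon guidance genes 10 were higher and 13 lower (47.9% called, against 33.8% of all genes). The semaphorin Sema3c was 8.72, 8.75 and 8.72 in BFC and 5.32, 5.37 and 5.28 in OP9 (-3.40), and the Slit receptor Robo1 was higher in OP9 (2.32) while the ligand Slit2 was lower (-1.35). Of 26 cadherins and adhesion receptors 5 were higher and 7 lower (46.15% called), with Pcdh7 (2.97) the furthest on the OP9 side.

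Cholesterol synthesis was lower in OP9. Of 20 measured genes 17 were lower, none was higher and 3 did not pass, with a median difference of -0.88 against 0.01 over all genes. The sterol oxidase Msmo1 was no higher than 7.40 on any OP9 array and no lower than 8.98 on any BFC array (-1.85 ± 0.12, SE, adjusted p = 1.45e-06). The prenyl synthase Fdps was 7.01, 7.09 and 7.13 against 8.68, 8.73 and 8.81 (-1.66), and the cyclase Lss was 5.08, 4.91 and 4.78 against 6.57, 6.58 and 6.47 (-1.62). The isomerase Idi1 (-1.41), the decarboxylase Mvd (-1.37) and the sterol carrier Stard4 (-1.29) followed. Srebf2, the factor that drives these genes when sterols are scarce, and its brake Insig1 were lower as well (-0.73 and -0.76), as was the synthase Hmgcs1 (-0.65); these 3 were chosen after their values were seen. For 18 of the 20 genes the arrays of the lines did not overlap, against 44.4% of all genes.

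Promoters of these genes are shown for the CCAAT box, the site of the factor NF-Y, which acts together with the sterol factor SREBP. RefSeq (GRCm38.p6) gave 250 bases upstream of the start for 16 of the 20 genes. All 16 held ATTGG, the CCAAT box read on the other strand, on at least 1 strand, as did 33.8% of 32851 promoters. Here and for the other motifs, a list gene counted if any of its promoters matched. Shares over all are of promoters, so the units differ. The sterol element TCACNCCAC was found in 1 of the 16, Hmgcs1, and in 1.1% of all promoters. Hmgcs1, an early enzyme of the pathway and the promoter with the sterol element, and Idi1, among the genes that differed most, are printed as examples. They held 3 and 2 matches of ATTGG, where a promoter of the list held up to 5. Capitals mark these, and both lie on the plus strand, at chr13:119690101-119690350 and chr13:8885356-8885605.
Hmgcs1: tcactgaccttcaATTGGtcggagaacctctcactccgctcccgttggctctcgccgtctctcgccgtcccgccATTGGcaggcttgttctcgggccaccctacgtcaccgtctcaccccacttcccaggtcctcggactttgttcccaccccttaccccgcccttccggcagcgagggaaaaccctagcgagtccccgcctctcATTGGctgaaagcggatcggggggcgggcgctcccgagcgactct
Idi1: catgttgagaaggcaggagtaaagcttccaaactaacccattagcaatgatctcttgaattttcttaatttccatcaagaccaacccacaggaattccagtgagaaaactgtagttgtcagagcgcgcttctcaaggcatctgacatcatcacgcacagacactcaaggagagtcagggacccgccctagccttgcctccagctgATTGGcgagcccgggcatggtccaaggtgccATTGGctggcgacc
These matches describe the letters only; no binding was measured.

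Cell cycle genes were lower in OP9 as a group. Of 43 measured, 33 were lower, 3 were higher and 7 did not pass, with a median difference of -0.74. The mitotic checkpoint kinase Bub1 was 7.58, 7.89 and 7.44 in OP9 and 9.27, 9.27 and 9.36 in BFC (-1.66 ± 0.11, SE, adjusted p = 1.86e-06). The mitotic kinesin Kif23 was 7.95, 8.07 and 7.78 against 9.47, 9.55 and 9.47 (-1.56), and cyclin B2 (Ccnb2) was 8.28, 8.27 and 7.98 against 9.58, 9.57 and 9.62 (-1.42). The kinase Melk (-1.42), the ubiquitin-conjugating Ube2c (-1.33) and cyclin A2 (Ccna2, -1.24) followed. The G1 cyclin Ccnd1, chosen after its values were seen, went the other way, at 9.45, 9.70 and 9.51 in OP9 and 8.58, 8.45 and 8.41 in BFC (1.07). Both lines were labelled confluent, and the growth rate of the cultures was not measured.

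**Figure D4:**
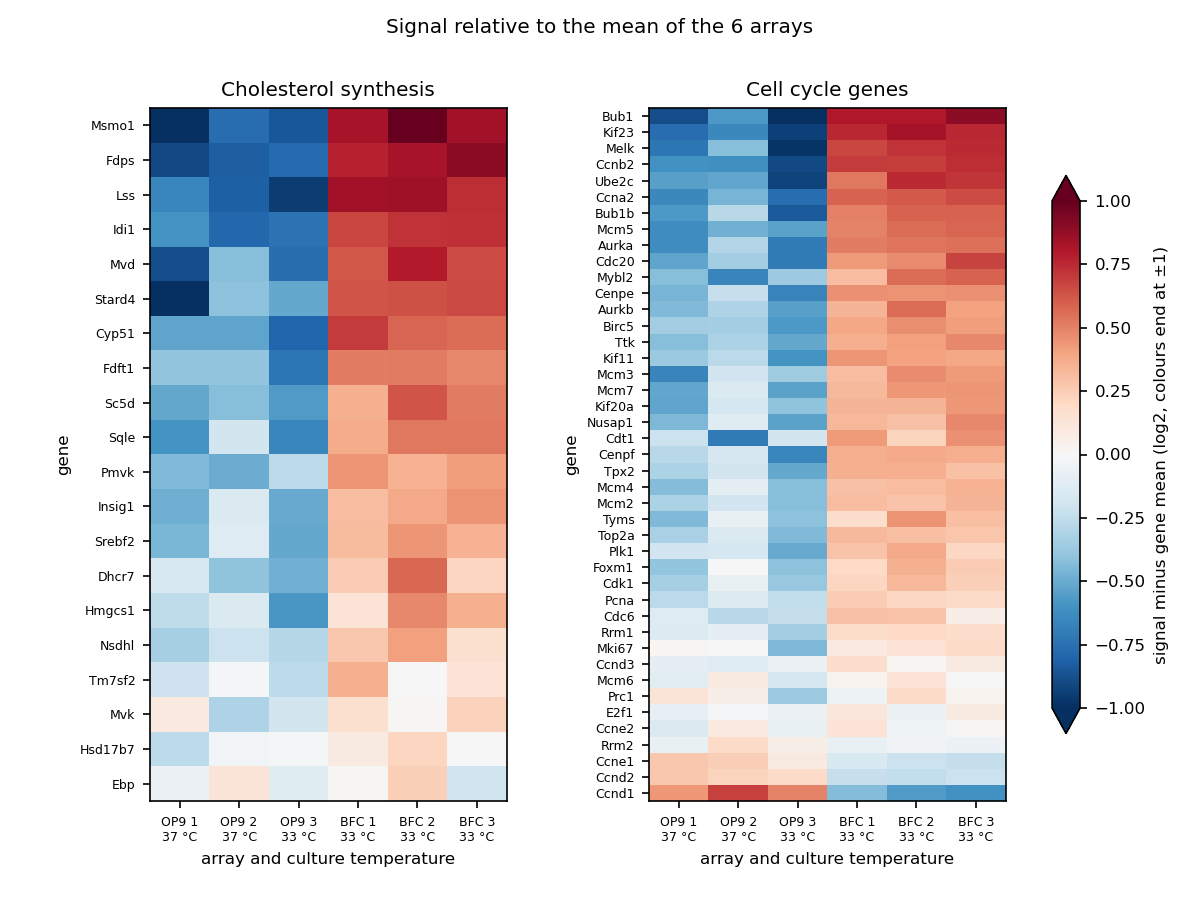
Signal of each measured cholesterol synthesis gene (left) and cell cycle gene (right) minus that gene's mean over the 6 arrays (log2, colours end at -1 and 1), for each array with its culture temperature. The OP9 columns are blue and the BFC columns red in most rows, and Ccnd1 in the lowest row of the right panel is turned.

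Targets of p53, the factor that halts damaged cells, were mostly higher in OP9, with 15 of 24 higher, 5 lower and a median difference of 0.48. The death receptor Fas was 7.72, 7.96 and 7.87 in OP9 and 4.91, 4.89 and 4.98 in BFC (2.92 ± 0.08, SE, adjusted p = 5.92e-09). Phlda3 (2.05), Polk (1.61), Btg2 (1.61) and Trp53inp1 (1.60) were higher too, and Perp was lower (-1.76). The p53 regulator Mdm2, itself a target, was 8.89, 8.86 and 8.88 against 7.93, 7.94 and 7.92 (0.95), and the tumour suppressor locus Cdkn2a was lower in OP9 (-1.26); both were chosen after their values were seen.

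Culture temperature was read within OP9, where 2 arrays at 37 °C could be set against 1 at 33 °C. No gene passed the threshold in limma's test (smallest adjusted p = 0.592), and 1062 genes (5.33%) had an unadjusted p under 0.05. With 1 array at 33 °C, that array and the temperature cannot be told apart. Between that 1 array and BFC, all at 33 °C, 4935 genes passed (24.8%); the lone array is assumed there to vary like the others.

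Of 3 cold-inducible RNA-binding proteins, which rise on mild cooling, 2 were lower in OP9 and 1 did not pass. Cirbp was 6.86 and 6.89 in OP9 at 37 °C, 6.80 in OP9 at 33 °C and 7.14, 7.26 and 7.19 in BFC at 33 °C. Rbm3 was 10.58 and 10.47, then 10.53, and in BFC 11.04, 10.97 and 11.06. The 33 °C array of OP9 thus lay beside the 37 °C arrays in both genes, and below all BFC arrays. With 1 array at that temperature in OP9, whether these genes respond to it there cannot be told. Of 24 heat shock proteins and chaperones 14 were lower in OP9 and 4 were higher, with a median difference of -0.32. The Hsp110 family member Hspa4l was 6.33, 6.50 and 6.52 in OP9 and 8.88, 8.93 and 8.79 in BFC (-2.41). Hspb1 (-0.87), the chaperonin subunit Cct3 (-0.85) and the co-chaperones Stip1 (-0.85) and Fkbp4 (-0.70) were lower too. The actin-associated Dnajb4 (1.65), Hspb8 (1.55) and its partner Bag3 (1.07) were higher in OP9.

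Immune genes were higher in OP9 in part. Among 45 interferon response genes, 16 passed on the OP9 side and 3 on the BFC side (median difference 0.16). The share called was 42.2%, against 33.8% of all genes. Samd9l was 8.31, 8.33 and 8.52 in OP9 and 4.31, 4.43 and 4.84 in BFC (3.86 ± 0.13, SE, adjusted p = 1.7e-08). Trim30a was 7.35, 7.15 and 7.18 against 4.40, 4.55 and 4.55 (2.73), and Rtp4 (2.07), Ifi27 (2.04), the GTPase Iigp1 (1.71) and Ifit3 (1.61), an antiviral RNA-binding family member, were higher too. Ifit2, of the same family and chosen after its values were seen, was lower (-0.81). Of 16 measured genes of MHC class I and antigen presentation 7 were higher and 2 lower (56.25% called). The class I light chain B2m was 11.20, 11.19 and 11.18 in OP9 and 10.21 on each BFC array (0.98 ± 0.07, SE, adjusted p = 2.43e-06).

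Of 43 chemokines and inflammatory cytokines 15 were higher in OP9 and 7 lower (51.2% called, against 33.8% of all genes). The chemokine Ccl9 was 7.84, 7.92 and 7.93 in OP9 and 4.14, 4.01 and 4.05 in BFC (3.83), and the interleukin 1 antagonist Il1rn was 8.77, 8.81 and 8.45 against 4.86, 5.11 and 4.92 (3.71). Il15 (2.27), a cytokine of natural killer cells, and Il18 (2.12) were higher, and Cxcl15 was lower (-2.52).

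The interferon-stimulated response element (ISRE) was found in 16 of the 32 interferon genes with a RefSeq promoter and in 3.0% of all promoters. Ifit3 is printed because it held 2 matches and was higher in OP9; its 250 bases lie on the plus strand at chr19:34583279-34583528, and capitals mark the element read on the other strand.
Ifit3: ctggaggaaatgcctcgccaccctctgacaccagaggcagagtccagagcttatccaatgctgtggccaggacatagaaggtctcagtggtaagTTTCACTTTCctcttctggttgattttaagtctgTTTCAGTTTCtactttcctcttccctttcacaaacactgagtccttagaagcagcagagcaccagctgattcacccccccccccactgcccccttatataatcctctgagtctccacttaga
Of the 10 motifs searched on both strands, the others were found as follows. The TEAD site GGAATG was in 10 of 22 YAP and SRF targets (12.6% of all promoters), and the CArG box in 0 of 19 smooth muscle genes (0.1%). Among 34 cell cycle genes TTTGAA was in 9 (16.0%), TTCCCGC in 3 (3.8%) and TTTGGCGC in 2 (0.4%). The EBF site was in 1 of 26 adipocyte genes (0.8%), and the metal element core TGCNCNC in 10 of 24 metallothionein, glutathione and Nrf2 genes (44.4%).

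Imprinted genes, which are expressed from 1 parental copy and often set fetal growth, differed in both directions. Of 25 measured, 9 were higher in OP9 and 5 lower (56% called). Of all genes 17.1% were higher and 16.7% lower, so the lower count was near its share. The hydrolase Mest was 9.99, 10.19 and 9.70 in OP9 and 4.48, 4.45 and 4.43 in BFC (5.50 ± 0.11, SE, adjusted p = 7.61e-10). The neighbours Sgce (4.20) and Peg10 (2.48), which share an imprinted cluster, were higher together. Necdin (Ndn) was 6.39, 6.62 and 6.72 in BFC and dim on all OP9 arrays at 3.85, 3.84 and 3.45 (-2.86), and the zinc finger gene Peg3 was 6.82, 7.11 and 7.12 against 4.18, 4.29 and 4.17 (-2.81).

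MicroRNA loci were represented by 296 probe sets with a single symbol, of which 25 were higher (8.45%) and 14 lower (4.73%) in OP9, below the 17.1% and 16.7% of all genes. These arrays read the locus transcript and do not tell the mature arms apart. A difference of at least 2-fold, with the higher mean above the first quartile, was reached by 5 loci. Mir335, which lies within the Mest gene, was 6.38, 6.37 and 5.66 in OP9 and 4.20, 4.71 and 4.87 in BFC (1.54 ± 0.21, SE, adjusted p = 0.000254). Mir99a was 5.46, 4.77 and 5.63 against 3.79, 3.27 and 3.22 (1.86), and its host transcript Mir99ahg, chosen after its values were seen, differed by 1.12. Mir680-2 (1.38) and Mir542 (1.15) were higher, and Mir31 was lower in OP9, at 4.39, 3.83 and 4.19 against 5.88, 5.07 and 5.38 (-1.31). The mature sequences of these loci are printed because the seed sets target pairing, and are taken from RefSeq (GRCm38.p6), with the seed, bases 2 to 8, in capitals. No seed was shared among them. Mir335-5p lies at chr6:30741314-30741336 on the plus strand, Mir99a-5p at chr16:77598940-77598961 (plus), Mir542-3p at chrX:53049415-53049436 (minus), Mir680 at chrX:144297790-144297810 (plus) and Mir31-5p at chr4:88910614-88910635 (minus).
mmu-miR-31-3p: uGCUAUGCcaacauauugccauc
mmu-miR-31-5p: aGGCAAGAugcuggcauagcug
mmu-miR-335-5p: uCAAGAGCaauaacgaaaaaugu
mmu-miR-335-3p: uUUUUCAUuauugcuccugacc
mmu-miR-542-3p: uGUGACAGauugauaacugaaa
mmu-miR-542-5p: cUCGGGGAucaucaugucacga
mmu-miR-680: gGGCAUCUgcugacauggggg
mmu-miR-99a-5p: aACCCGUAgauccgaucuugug
mmu-miR-99a-3p: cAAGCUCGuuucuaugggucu

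Sex chromosome genes differed between the lines. The Y-linked Eif2s3y was 7.18, 7.44 and 7.25 in OP9 and dim on all BFC arrays at 2.78, 2.66 and 2.45 (4.66), and Uty (3.33) and Kdm5d (3.21) were higher in the same way. Xist, the RNA that silences an X chromosome in female cells, was dim in both lines, with 3.24, 3.37 and 3.36 in OP9 and 3.22, 3.30 and 3.07 in BFC (adjusted p = 0.301).

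Whether these differences were those of other supportive lines was read from the fetal liver pairs of the series, AFT024 (supportive) against BFC012 and 2012 (supportive) against AFT011, by testing the difference between differences over the 39 confluent arrays. These pairs share no array with OP9 and BFC, although the labels do not say whether BFC and BFC012 are the same clone. They lie in other normalization sets, whose upper quartiles over probe sets were 7.19 to 9.16 against 6.56 to 6.59 here. The OP9 and BFC difference departed from that of AFT024 and BFC012 in 5739 genes (28.8%) and from that of 2012 and AFT011 in 6618 genes (33.2%). With all 51 arrays quantile normalized together, which gives the sets 1 common distribution, these counts were 5970 and 7126. Between AFT024 and BFC012, 15.6% of all genes were higher and 12.9% lower, and between 2012 and AFT011 27.6% were called, 13.4% of all genes being higher and 2819 genes lower. Of the 28 named genes, 16 passed in the same direction between AFT024 and BFC012, 0 in the opposite direction and 12 did not pass. Between 2012 and AFT011, 14 passed in the same direction and 6 in the opposite one, and 8 did not pass.

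Several of the leading secreted factors and fat genes were not alike in these pairs, although the adipocyte list, given below, leaned the same way. The differences of Hgf between AFT024 and BFC012 (0.28) and between 2012 and AFT011 (0.20) did not pass, and the gap to the 5.69 of OP9 and BFC passed in both (adjusted p = 6.07e-18 and 3.31e-18). Angpt1 did not pass between AFT024 and BFC012 (0.07) but passed between 2012 and AFT011 (1.06, adjusted p = 0.000305), by less than its 5.99 here. For Adipoq both fetal liver differences were 0.05, and for Fabp4 they were 0.08 and 0.39, and none of these passed. The fat gene Lpl, in contrast, differed by 4.57 between AFT024 and BFC012 (adjusted p = 4.59e-24) and by -0.69 between 2012 and AFT011, and the reticular cell factor Ebf1 by 4.32 and 2.52. Kitl differed by 1.60 between AFT024 and BFC012 and by 0.32 between 2012 and AFT011, both less than its 2.73 here (adjusted p of the gap 0.00293 and 3.43e-08). Dlk1, which did not pass between OP9 and BFC, differed by 5.44 and 4.08 in the fetal liver pairs, and the gap passed (adjusted p = 8.41e-22 and 1.7e-18). In contrast the mesothelial genes Gpm6a and Upk1b were lower in the supportive line of all 3 pairs, with Gpm6a at -4.54 and -4.52 and Upk1b at -5.19 and -5.81 in the fetal liver pairs, and Mmp2 was higher in all 3, with 4.51 and 3.32.

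Some lists leaned the same way in each pair, and others differed. Of 29 mesothelial markers, 4 were higher and 13 lower between AFT024 and BFC012, and 4 higher and 16 lower between 2012 and AFT011. The 36 adipocyte genes held 12 higher and 4 lower in each fetal liver pair. The 18 reticular cell markers held 7 higher and 2 lower, and 8 higher and 3 lower. Lists that differed were as follows. The 20 cholesterol genes, 17 lower in OP9, held 4 higher and 1 lower between AFT024 and BFC012, near or below the shares of all genes given above, and 12 higher and 1 lower between 2012 and AFT011. The gap was on the lower side for OP9 in 14 and 16 of the 20, and on the higher side in none. The 43 cell cycle genes, 33 lower in OP9, held 6 higher and 13 lower, and 4 higher and 10 lower, and the gap was on the lower side in 30 and 31. The 24 smooth muscle genes, 14 higher in OP9, held 8 lower and 4 higher between AFT024 and BFC012 and 10 lower and 5 higher between 2012 and AFT011, and the gap was on the higher side in 14 and 13. The 45 interferon genes, 16 higher in OP9, held 32 higher between AFT024 and BFC012 and 12 lower between 2012 and AFT011.

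**Figure D5:**
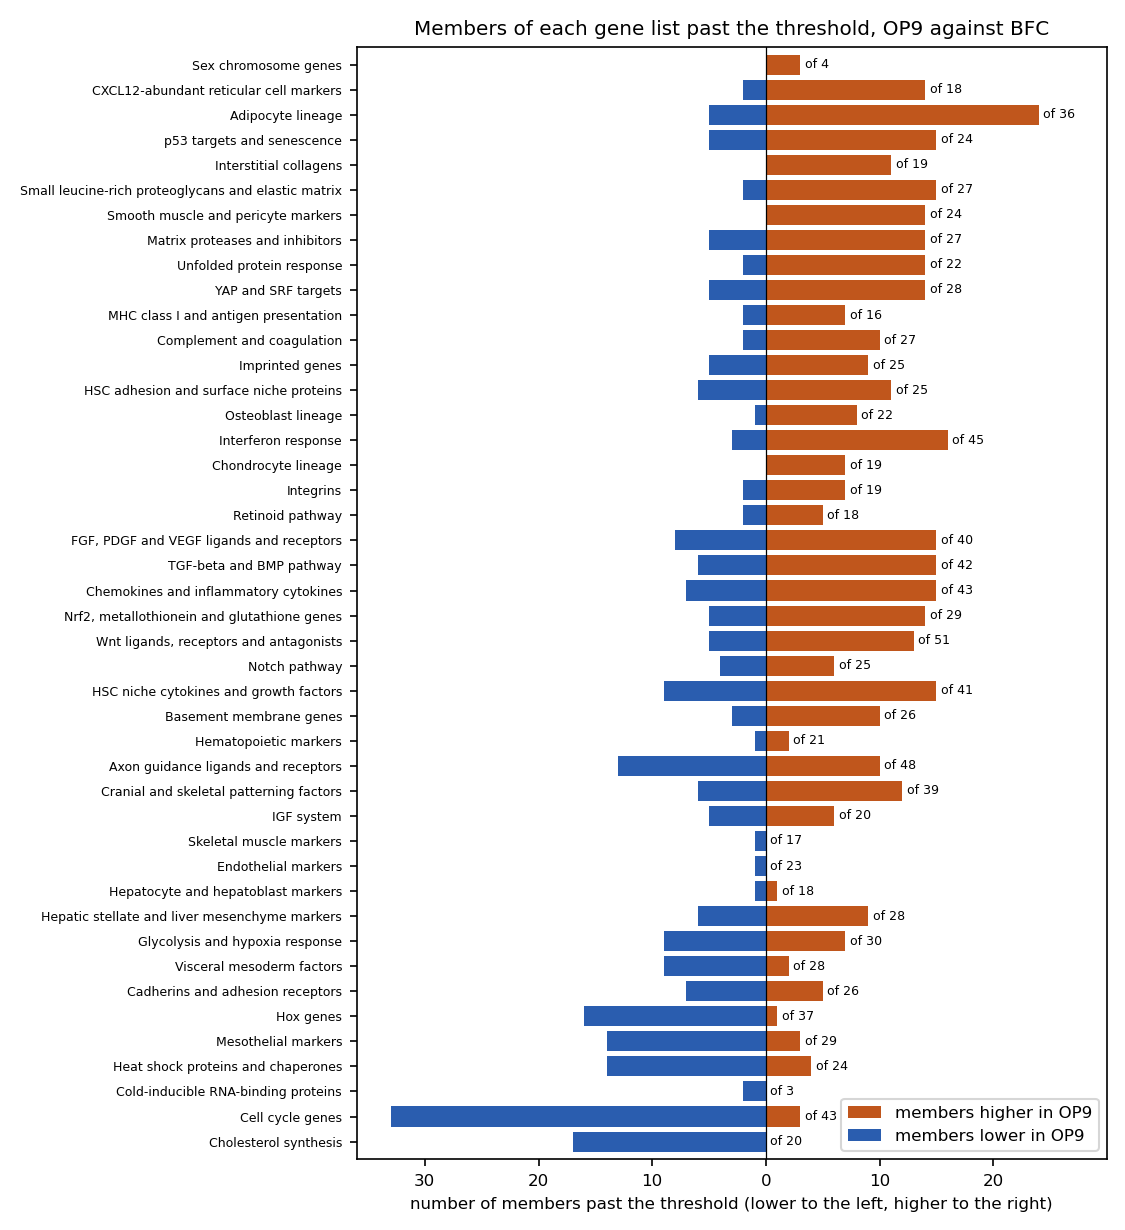
Number of members of each of the 44 gene lists that were higher (orange, to the right) or lower (blue, to the left) in OP9, ordered by the list's median difference, with the number measured at the right end of each bar. Sex chromosome genes, reticular cell markers and adipocyte genes lie at the top, and cholesterol and cell cycle genes at the bottom. Over all genes tested, 17.1% were higher and 16.7% lower.

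Levels were not ranked across all 13 confluent lines. When each gene's signal was turned into its percentile within an array, OP9 and BFC were together the 2 highest lines for 25.4% of all genes and the 2 lowest for 23.2%, so a percentile still carried the normalization set. Within the set, Adipoq was at percentile 98.5 in OP9 and 25.2 in BFC, and Cd36 at 97.2 and 9.51. Cxcl12 was at 99.3 in OP9 and 97.5 in BFC.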

How the data were processed

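Affymetrix mouse gene 1.0 ST arrays of OP9 and BFC were used as deposited: log2 signals per probe set, made by the authors. The submitters' processing notes name RMA and Partek, with versions not given in the sources used here. Of 35556 probe sets, 21789 carried 1 gene symbol and were used, 1621 carried several and 12146 none. The probe set with the highest mean stood for a gene, which gave 19938 genes, 999 of them with several probe sets.

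Groups were compared with limma 3.58.1 (lmFit and eBayes, R 4.3.3), with p-values adjusted over all genes by the Benjamini-Hochberg method and a threshold of 0.05. Only the 6 arrays entered the comparison of OP9 with BFC. The temperature fit gave OP9 at 37 °C a group of its own, and the fit against other fetal liver pairs used the 39 confluent arrays. The fit was tested on simulated data. The number of arrays, 3 a line, limits the precision.

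The members and gene lists were chosen with earlier results of these data known. Named genes were the 14 with the largest difference in each direction whose arrays did not overlap, up to 6 of each list with the largest difference past the threshold, niche cytokines that did not pass, and heat and cold genes past it; others are named as chosen after their values were seen. Csf1 was read first because of the op/op label, and its signal does not check the genotype. Same-numbered arrays of the lines did not deviate together (correlations 0.034, 0.039 and -0.0061), so the numbers were not taken as pairs.

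Alternatives were the 39 confluent arrays, a replicate block, each replicate left out, a filter on dim genes and median centring. Further ones were quantile normalization of all 51 arrays, the mean of a gene's probe sets and a trended robust prior. The 33 °C OP9 array was also contrasted with BFC in a fit of all 6 arrays. For the gaps to the fetal liver pairs, a fit of only the 12 arrays of the 4 lines was added. Motifs were counted with Python 3.11.15 in RefSeq promoters.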

Additional observations from a re-analysis of the deposited data

Results flagged for a closer look

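For 6 of the 28 named genes the difference between OP9 and BFC was called in one direction and that between the fetal liver lines 2012 and AFT011 in the opposite one, and limma's test of the gap passed. The gap was 6.65 for lipoprotein lipase (Lpl), 6.07 for Adam23, -5.85 for the latrophilin Adgrl2, -6.45 for dermatopontin (Dpt), -5.62 for Rnf130 and -5.06 for Cadm1. The gap passed for all 28 named genes against this pair, and for 27 of 28 against AFT024 and BFC012, Adgrl2 being the exception. The 28 genes had been chosen for their large difference between OP9 and BFC, so counts of passing gaps among them follow in part from that choice. Over all genes the gap passed for 33.2% against this pair and for 28.8% against AFT024 and BFC012. The pairs lie in different normalization sets. With all 51 arrays quantile normalized together, a setting chosen for single genes after seeing the data, the gaps were 6.72 for Lpl, 6.28 for Adam23, -5.98 for Adgrl2, -6.89 for Dpt, -5.97 for Rnf130 and -5.31 for Cadm1, and the gap passed for 28 of 28 named genes against this pair and 26 of 28 against AFT024 and BFC012. Adgrl2 and Gpm6a (-0.03, adjusted p = 0.922) were the exceptions there.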

How the results depend on the processing

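The count of 6744 genes between OP9 and BFC was 6857 with the 39 confluent arrays, 4935 with 33 °C arrays only, 6765 without dim genes, 6664 with arrays centred on the median, 6601 with all 51 arrays normalized together, 6782 with the mean of probe sets and 7045 with the trended prior. Leaving out 1 replicate gave 5917 to 6378. With the replicate number as a block it was 6589, and the block left the gaps to the fetal liver pairs at 5791 and 6657 genes. Leaving out 1 replicate gave 5345 to 5673 genes for the first gap and 5943 to 6720 for the second. A fit of only the 12 arrays of the 4 lines compared gave 4866 for the first gap, the lowest count for it, and 6699 for the second. With all 51 arrays normalized together the gaps held 5970 and 7126 genes. The test of temperature called 0 genes under each alternative run. Of 231 genes followed, 0 reversed under these alternatives. The genes that missed the threshold under at least 1 of them were Omd, Lyz2, Fcer1g, Lyz1, Hes1, Notch2 and Egln3, all 7 of them with the 33 °C array alone; the cause was not tested, though that fit rests on 1 OP9 array. Under the block only Fcer1g, of the genes followed, no longer passed. Each line is 1 line of 3 arrays, dim signals bound folds from below, and levels were not compared between genes.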

Other observations

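Stress and detoxification genes also differed. Of 22 unfolded protein response genes 14 were higher in OP9 and 2 lower (median 0.31). The disulfide isomerase Pdia4 was 9.65, 9.71 and 9.69 in OP9 and 8.11, 8.05 and 8.06 in BFC (1.61), Dnajb9 (1.47) and the factor Xbp1 (1.01) were higher, and the stress factor Atf3 was lower (-1.03). Of 29 Nrf2, metallothionein and glutathione genes 14 were higher and 5 lower. The metal-binding metallothioneins were lower in OP9, with Mt2 at 4.16, 4.13 and 4.29 against 7.66, 7.77 and 7.84 in BFC (-3.56) and Mt1 at -1.75, while catalase (Cat, 1.79) and heme oxygenase (Hmox1, 1.57) were higher. Of 30 glycolysis and hypoxia genes 7 were higher and 9 lower (53.3% called, against 33.8% of all genes). Adrenomedullin (Adm, 2.52) and Bnip3 (1.56) led.

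Secreted and circulating factors followed no single direction. Of 27 complement and coagulation genes 10 were higher in OP9 and 2 lower (44.4% called, against 33.8% of all genes). The lectin pathway protease Masp1 was 8.71, 9.02 and 8.75 in OP9 and 4.70, 4.98 and 4.80 in BFC (4.00), and the coagulation inhibitor Tfpi was 7.81, 7.83 and 7.69 in BFC and 4.22, 4.08 and 4.13 in OP9 (-3.63). Of 20 insulin-like growth factor genes 6 were higher and 5 lower (55% called). Igfbp7 was 10.17, 10.15 and 10.05 in OP9 and 6.48, 6.54 and 6.45 in BFC (3.63), and the insulin receptor substrate Irs1 was higher as well (2.36). Of 40 FGF, PDGF and VEGF genes 15 were higher and 8 lower (57.5% called). The receptor Fgfr1 (1.68) was higher and the ligand Pdgfd (-1.65) lower. In the retinoid pathway 5 of 18 were higher and 2 lower (38.9% called, near the 33.8% of all genes). The reductase Dhrs3 (2.15) and the retinol carrier Rbp4 (2.02) were higher. Of 28 hepatic stellate and liver mesenchyme markers 9 were higher and 6 lower (53.6% called), and the matrix protein Ecm1 was higher in OP9 (2.38). Markers of 3 other cell types were called less often than the 33.8% of all genes. Of 23 endothelial markers 1 passed (Flt1, -1.29, 4.35% called), and of 17 skeletal muscle markers 1 passed (Pax3, -0.58, 5.88%). Among 18 hepatocyte markers 1 was higher and 1 lower (11.1%). Dim in both lines were 7 endothelial, 4 skeletal muscle and 11 hepatocyte markers, for which the array may not register a difference.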
